A study of Mus musculus with 18 samples.

Results

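Lyz1, Lyz2, Chil1, S100g and Bex2 are 5 of the 52636 genes in the deposited tables, chosen by name as products of alveolar type 2 cells whose levels depended strongly on the Wnt agonist CHIR99201 or on its withdrawal. Their values under CHIR99201 and after withdrawal therefore chose them. Comparisons with the CHIR, 24 h and 48 h libraries are given as a description, and the results tested on the members are those between the ligand groups. RNA was sequenced from cultured mouse lung cells labelled alveolar type 2, the epithelial type that makes surfactant in the alveolus. Culture had been with CHIR99201, which activates Wnt signalling inside the cell by inhibiting the kinase GSK3, for 19 days. All 6 groups of 3 libraries, controls included, carried LGK974, an inhibitor of the acyltransferase porcupine that stops cells from secreting their own Wnt ligands. The CHIR group stayed on CHIR99201, and in the others it was withdrawn for 24 h, withdrawn for 48 h, or replaced by Wnt (the WNT group), a FZD5 agonist or a FZD6 agonist, with treatments of 8 to 12 h. The sample labels give no withdrawal time for the ligand groups. How long these had been without CHIR99201, relative to 24 h and 48 h withdrawal, is thus not known. FZD5 and FZD6 are Frizzled receptors for Wnt ligands. The labels name no strain, age or dose and do not say if a group's 3 libraries are separate cultures or animals. The p-values thus measure only spread among libraries, some of which may be technical.

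The 5 genes have different jobs. Lyz1 and Lyz2 encode lysozymes, secreted enzymes that cut the peptidoglycan of bacterial cell walls, and in mouse Lyz1 is best known from Paneth cells of the gut and Lyz2 from macrophages, neutrophils and alveolar type 2 cells. Chil1 (BRP-39, the mouse counterpart of YKL-40) belongs to the chitinase family by fold but cannot cut chitin, and it signals to lung epithelium and immune cells through a receptor complex with Il13ra2. S100g encodes calbindin-D9k, a small cytosolic calcium-binding protein with a vitamin D-responsive gene in the intestine, and Bex2 encodes a small adaptor protein of the brain-expressed X-linked family.

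The lysozyme genes are neighbours and close copies, which bears on every count given for them. In GENCODE M21 on GRCm38, Lyz1 (ENSMUSG00000069515) occupies chromosome 10 from 117287797 to 117292868 and Lyz2 (ENSMUSG00000069516) from 117277331 to 117282321, both on the minus strand. Each has 4 exons, and the transcripts measure 1263 and 1316 bases. Their coding sequences without the stop codon, 444 bases each in the GENCODE transcripts, differ at 22 bases (95.05% identity, 18 of 148 codons). The first 300 coding bases are printed because they hold 20 of these mismatches, the only coding bases by which a read can be given to either gene. Capitals mark the bases that differ.
Lyz1: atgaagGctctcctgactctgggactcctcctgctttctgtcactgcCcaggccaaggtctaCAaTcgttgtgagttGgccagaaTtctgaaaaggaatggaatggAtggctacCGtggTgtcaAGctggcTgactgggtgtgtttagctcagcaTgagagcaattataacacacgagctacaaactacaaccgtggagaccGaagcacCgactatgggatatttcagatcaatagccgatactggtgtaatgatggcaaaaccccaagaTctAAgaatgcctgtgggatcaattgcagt
Lyz2: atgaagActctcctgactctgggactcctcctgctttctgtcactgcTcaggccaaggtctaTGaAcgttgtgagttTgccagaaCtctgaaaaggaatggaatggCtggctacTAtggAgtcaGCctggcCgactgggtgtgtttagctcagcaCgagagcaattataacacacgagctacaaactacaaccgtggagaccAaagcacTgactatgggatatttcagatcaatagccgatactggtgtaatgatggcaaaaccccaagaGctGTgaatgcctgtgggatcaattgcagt
The longest identical coding stretch was 118 bases. Of the windows of 50 bases in the whole Lyz1 transcript, 195 of 1214 (16.1%) also stand in Lyz2, and 195 of 1267 (15.4%) the other way round. No other gene's transcript shared such a window. How reads that fit both genes were counted is not given in the sources used here, so a part of each gene's count is uncertain, and the sum of both genes is given below beside each gene alone.

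The upstream sequences differ more than the coding ones. The bases from 250 to 51 before the RefSeq start (GRCm38.p6, minus strand, chr10:117292919-117293118 for Lyz1 and chr10:117282323-117282522 for Lyz2) are shown because both genes moved unequally between groups. In a global alignment 150 of 198 aligned bases (75.8%) were identical, and capitals mark those that differ or have no partner.
Lyz1: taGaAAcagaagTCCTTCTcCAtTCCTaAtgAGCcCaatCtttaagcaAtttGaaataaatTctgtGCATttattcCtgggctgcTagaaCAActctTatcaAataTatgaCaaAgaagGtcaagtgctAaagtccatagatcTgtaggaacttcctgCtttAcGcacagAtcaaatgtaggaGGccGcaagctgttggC
Lyz2: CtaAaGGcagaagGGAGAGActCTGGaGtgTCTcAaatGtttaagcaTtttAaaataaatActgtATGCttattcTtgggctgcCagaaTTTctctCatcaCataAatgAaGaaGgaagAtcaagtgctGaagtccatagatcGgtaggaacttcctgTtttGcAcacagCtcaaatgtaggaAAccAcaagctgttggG
All 5 genes had a RefSeq promoter entry, and 3 short motifs were searched in the 250 upstream bases on both strands. CAAGTG, a core of sites for the lung epithelial factor NKX2-1, was found 1 time in Lyz1 and 1 time in Lyz2, in both from position -129, and 1 time in Bex2 from position -85. That motif stands in 11.6% of all 32851 promoters searched. TTNNGNAA, a core of C/EBP sites, had 1 match in Lyz1, Lyz2, Chil1 and Bex2 each and 5 in S100g, some of which overlap, and 36.8% of all promoters hold at least 1. CTTTGA, a core of sites for the Wnt effectors TCF and LEF, was in none of the 5 windows and in 13.8% of all promoters, which says only that these letters are not there.

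Chil1 (ENSMUSG00000064246) lies on chromosome 1 from 134182176 to 134190181 on the plus strand. S100g (ENSMUSG00000040808) lies on chromosome X from 162961992 to 162964599 and Bex2 (ENSMUSG00000042750) on the same chromosome from 136066564 to 136068236, both on the minus strand. All 5 genes are annotated as protein-coding. S100g overlaps 1 gene, Ctps2, on the other strand, but 0 of its 480 exon bases lie in an exon of Ctps2, and Ctps2 measured 20.3 to 90.3 CPM. The other members overlap no annotated gene.

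The libraries held 31509607 to 52030066 counts, so that 3 counts correspond to 0.0577 to 0.0952 CPM (counts scaled to equal library size, here with edgeR's TMM factors). The 4 libraries CHIR 1, CHIR 3, FZD6 agonist 1 and 24 h withdrawal 2 stood apart, with median correlations to the others of 0.782 to 0.950 against 0.966 to 0.982 for the remaining 14. Values that move strongly without them are given both ways. All 10 alveolar type 2 markers reached at least 1 CPM in each library. Of 14 macrophage markers, Adgre1, Marco, Itgam, Tyrobp, C1qb, Chil3 and Ear2 had 0 counts in each library, Ptprc reached at most 0.0728 CPM, and the summed level (0.704 to 13.6 CPM) was mostly Cd68, which epithelial cells also express, wherever it exceeded 1 CPM. Of 10 Paneth and gut markers, Defa17, Defa24, Defa30, Ang4 and Pla2g2a had 0 counts, and Mmp7 reached at most 0.0273 CPM. The summed level of 14.1 to 97.7 CPM was made up mainly of Ephb3, except in CHIR 1, where Lgr5 held 7.74 of 14.1 CPM. In CHIR 2 Lgr5 held 10.05 CPM. Lyz2 and Lyz1 were thus measured in libraries where the defining markers of macrophages and Paneth cells were at or near 0.

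Levels of the 5 genes differed widely per length. After 48 h of withdrawal, CPM per kilobase of the deposited gene width averaged 9146 ± 202 for Chil1 (SD, n = 3), 911 ± 41.8 for Lyz2, 239 ± 79.9 for Lyz1, 178 ± 19.5 for S100g and 5.01 ± 1.84 for Bex2. In the CHIR group the order was Chil1 (3103 ± 606), Lyz1 (1425 ± 368), Lyz2 (597 ± 417), S100g (28.5 ± 8.56) and Bex2 (26.3 ± 8.26). Lyz1 and Lyz2 thus changed places between these groups, and S100g and Bex2, which stood within 1 SD of each other under CHIR99201, did not after 48 h.

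Chil1 was the most abundant member in each library. It measured 7095, 4766 and 6191 CPM in the CHIR libraries 1 to 3, 6928, 3918 and 6612 after 24 h of withdrawal, and 17777, 18101 and 17323 after 48 h. With WNT it measured 16792, 17156 and 17244 CPM, with the FZD5 agonist 10223, 10271 and 10728, and with the FZD6 agonist 6580, 10897 and 10646. The libraries of 48 h withdrawal and WNT were all above the others and those of CHIR and 24 h withdrawal all below the FZD5 agonist, which lay between them. Chil1 alone took 1.70% to 1.79% of all gene counts after 48 h. By group mean the order was 48 h withdrawal (17734 ± 391), WNT (17064 ± 240), FZD5 agonist (10408 ± 279), FZD6 agonist (9374 ± 2423), CHIR (6017 ± 1174) and 24 h withdrawal (5819 ± 1654). CHIR and 24 h withdrawal lay within their spread of each other, as did the agonist groups (the FZD6 agonist mean was 10771 without its library 1). The log2 difference between 48 h and 24 h was 1.61 (1.40 over 14 libraries), and between 48 h and CHIR 1.56 (1.92).

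S100g was likewise highest after 48 h and with WNT, on a far lower scale. Its CPM were 13.4, 9.74 and 17.9 in CHIR, 27.1, 86.6 and 22.1 after 24 h and 83.8, 95.6 and 77.1 after 48 h. The WNT libraries held 90.4, 72.5 and 78.8 CPM, the FZD5 agonist libraries 53.0, 27.8 and 37.3, and the FZD6 agonist libraries 14.5, 32.1 and 33.7. The CHIR libraries were all below those of 24 h and 48 h withdrawal, and the 24 h libraries overlapped those of 48 h only through 24 h withdrawal 2. Group means were 85.5 ± 9.38 after 48 h, 80.5 ± 9.09 with WNT, 45.3 ± 35.8 after 24 h, 39.4 ± 12.7 with the FZD5 agonist, 26.8 ± 10.6 with the FZD6 agonist and 13.7 ± 4.11 in CHIR. The third place of 24 h withdrawal rested on its library 2, since over 14 libraries its mean was 24.6, below the FZD5 agonist (39.4) and the FZD6 agonist (32.9), and CHIR 2 alone held 9.74. Over 18 libraries, neighbours in this order lay within their spread of each other. Against CHIR, the log2 difference was 1.72 at 24 h and 2.64 at 48 h over 18 libraries, and 1.35 and 3.16 over 14.

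Lyz1 and Bex2 were lowest after 48 h of withdrawal and with WNT. Lyz1 measured 1916, 1289 and 2196 CPM in CHIR, 934, 1148 and 546 after 24 h and 254, 418 and 234 after 48 h. It measured 406, 219 and 274 CPM with WNT, 975, 995 and 1138 with the FZD5 agonist, and 6152, 1480 and 1279 with the FZD6 agonist. Library 1 of the FZD6 agonist stood far above the next highest library, CHIR 3, and the FZD6 agonist mean of 2970 ± 2757 CPM became 1380 without it. The order of means was FZD6 agonist, CHIR (1800 ± 465), FZD5 agonist (1036 ± 89.2), 24 h withdrawal (876 ± 305), 48 h withdrawal (302 ± 101) and WNT (299.8 ± 95.9). The last pair did not differ beyond their spread, nor did the FZD5 agonist and 24 h withdrawal.

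Bex2 measured 31.3, 23.6 and 16.4 CPM in CHIR, 11.1, 30.9 and 10.6 after 24 h and 3.93, 6.40 and 3.23 after 48 h. It measured 5.09, 2.96 and 3.22 CPM with WNT, 6.22, 5.96 and 5.26 with the FZD5 agonist, and 14.8, 5.82 and 5.60 with the FZD6 agonist. The highest 24 h and FZD6 agonist values both came from libraries that stood apart, and without these the means went from 17.5 to 10.8 CPM after 24 h and from 8.76 to 5.71 with the FZD6 agonist. Against CHIR the log2 difference at 48 h was -2.39 for Bex2 (-2.36 over 14 libraries) and -2.58 for Lyz1 (-2.07), and the libraries of these groups did not overlap for either gene.

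Lyz2 had another pattern than Lyz1. It measured 1353, 748 and 257 CPM in CHIR, 711, 171 and 700 after 24 h, and 1226, 1234 and 1135 after 48 h. It measured 1600, 1420 and 1445 CPM with WNT, 1639, 1384 and 1871 with the FZD5 agonist, and 793, 2007 and 2010 with the FZD6 agonist. The means were 1631 ± 243 with the FZD5 agonist, 1603 ± 702 with the FZD6 agonist, 1488 ± 97.1 with WNT, 1198 ± 55.0 after 48 h, 786 ± 549 in CHIR and 527 ± 308 after 24 h. Over all 18 libraries the 3 ligand groups lay within their spread of each other, and CHIR overlapped 24 h and 48 h withdrawal. The lowest libraries of the CHIR, 24 h and FZD6 agonist groups were CHIR 3, 24 h withdrawal 2 and FZD6 agonist 1. Over 14 libraries the means were 2009 CPM with the FZD6 agonist and 705 after 24 h, so that the FZD6 agonist then stood above the FZD5 agonist.

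Across the series, 4 of 5 members (all but Lyz2) had no overlap between 48 h withdrawal and CHIR, where 29% of all genes tested had none. That contrast chose the members, so nothing is read from the count. Between 24 h withdrawal and CHIR, Lyz1 and S100g were without overlap (9.3% of all genes), and between 48 h and 24 h the 4 other than S100g (23.5%). Against CHIR, all 5 were without overlap for WNT (27.1% of all genes) and for the FZD5 agonist (25.9%), and Bex2 alone for the FZD6 agonist (11.3%).

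**Figure D1:**
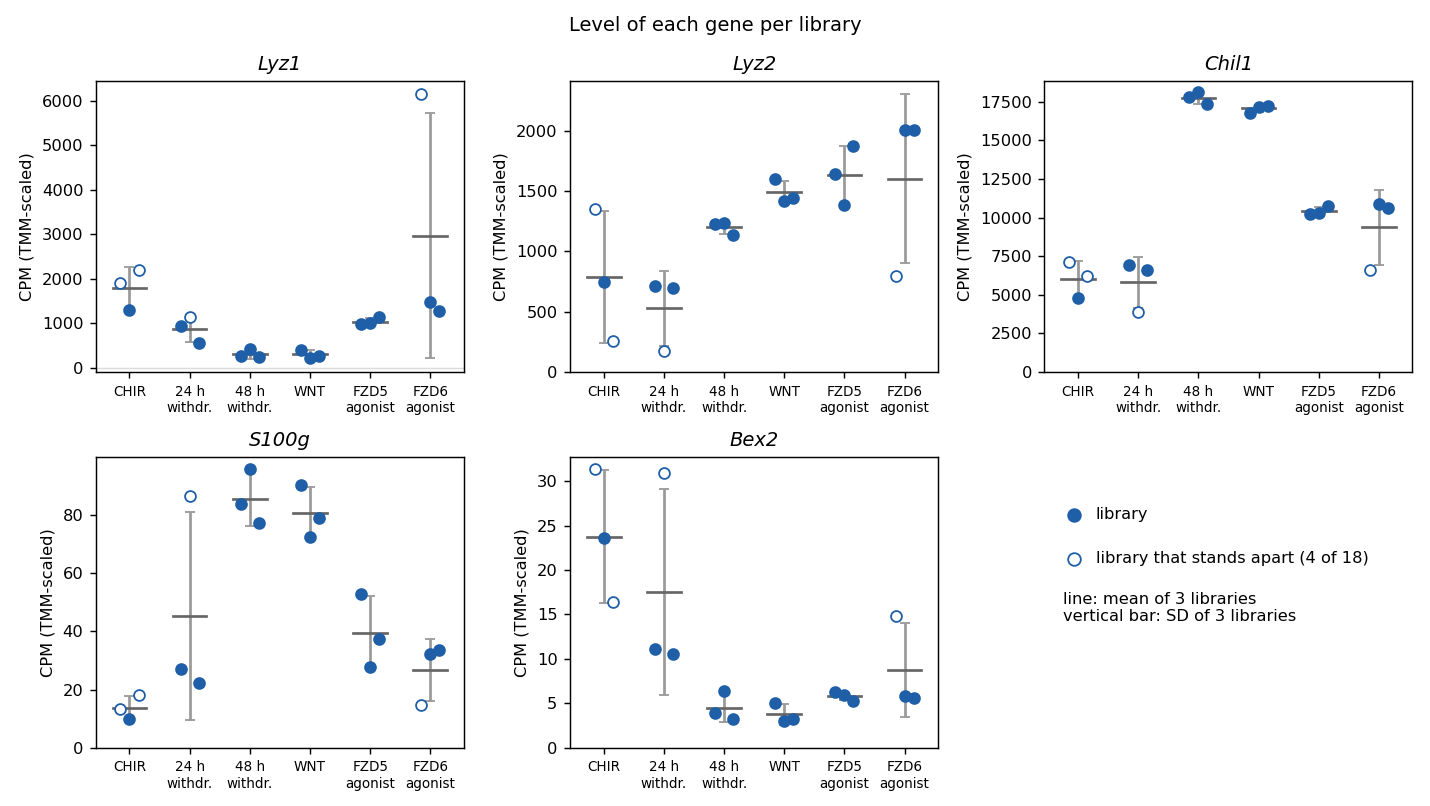
Level of each of the 5 genes per library in CPM (vertical axes, linear, separate scales) by group (horizontal axis), with the mean and SD of 3 libraries as lines and open circles for the 4 libraries that stand apart. Chil1 and S100g are highest after 48 h of withdrawal and with WNT, Lyz1 of FZD6 agonist library 1 stands at 6152 CPM, and Bex2 is highest in CHIR.

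The share of Lyz1 in the summed lysozyme counts does not depend on library depth, and some pairs of groups did not overlap in it while others did. Lyz1 made up 58.6%, 63.3% and 89.5% of Lyz1 plus Lyz2 in CHIR and 56.8%, 87.0% and 43.8% after 24 h of withdrawal, but 17.2%, 25.3% and 17.1% after 48 h. The share was 13.4% to 20.2% with WNT, 37.3%, 41.8% and 37.8% with the FZD5 agonist, and 88.6%, 42.4% and 38.9% with the FZD6 agonist. The agonist libraries were all above those of WNT and of 48 h withdrawal, while CHIR, 24 h withdrawal and the FZD6 agonist overlapped each other, as did WNT and 48 h withdrawal. In an exact two-sided permutation test of log2(Lyz1/Lyz2), with 3 libraries against 3, the FZD5 agonist against WNT gave a difference of 1.71 and the FZD6 agonist against WNT 2.98, both with p = 0.1. That is the smallest p this design allows (Benjamini-Hochberg adjusted 0.15 over 9 comparisons), so no comparison could reach the threshold. As a description, the differences from 48 h withdrawal were 1.39 for the FZD5 agonist, 2.66 for the FZD6 agonist and -0.32 for WNT.

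Shares of 87.0% to 89.5% came from CHIR 3, 24 h withdrawal 2 and FZD6 agonist 1, of which the summed lysozyme level was 2453, 1319 and 6944 CPM. The summed level of 8 club and airway secretory markers was 890, 675 and 1029 CPM in these libraries, against 46.5 and 47.0 in the other CHIR libraries, 124 and 153 in the other 24 h libraries, and 212 and 154 in the other FZD6 agonist libraries. After 48 h it was 524 to 657 CPM, with WNT 496 to 551 and with the FZD5 agonist 141 to 355. In the 14 remaining libraries Scgb1a1 reached at most 0.947 CPM, Bpifa1 0.111 and Reg3g 0, so that the sum there was mostly Cyp2f2. The neutrophil markers Elane, Mpo and S100a9 had 0 counts in each library, while the summed neutrophil list, through Ltf, reached 31.1 to 122 CPM in those 3 libraries and at most 4.34 in the others. The part of these markers in the lysozyme shares was not tested.

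**Figure D2:**
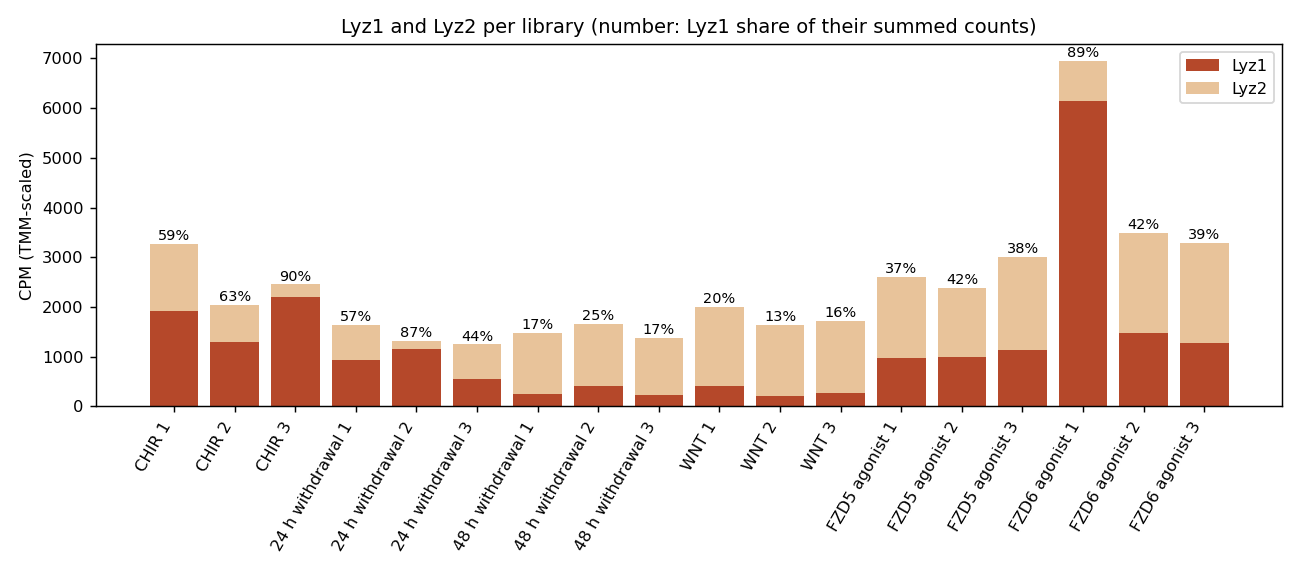
Stacked bars of Lyz1 (dark) and Lyz2 (light) in CPM for each of the 18 libraries, with the Lyz1 percentage of the summed counts above each bar. Lyz1 is the smaller part in the 48 h withdrawal, WNT and FZD5 agonist libraries (at most 41.8%) and the larger part in CHIR (58.6% to 89.5%).

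Comparisons of the ligands with each other share no library with the contrasts that chose the members. They are still not independent of that choice, which was made with earlier results of these data known. WNT against 48 h withdrawal had 0% of all genes called over 18 and over 14 libraries, so comparisons with WNT may repeat those with 48 h. Comparisons with 48 h or 24 h withdrawal share the withdrawal libraries, so their counts are printed with the share of all genes, but nothing is read from them. Over all 18 libraries, edgeR's quasi-likelihood test called 0 of 5 members in each of the 9 comparisons at an adjusted p under 0.05. It called 0% of all 16497 genes in 6 of these comparisons, 0.0121% for the FZD6 agonist against 48 h, 0.0303% for WNT against 24 h and 0.00606% for the FZD5 agonist against 24 h. At an unadjusted p under 0.05 it had 3 of 5 members for the FZD5 agonist against WNT (2.5% of all genes), 4 for the FZD6 agonist against WNT (3.67%), 3 and 3 for the agonists against 48 h (2.38% and 4.04%) and 0 for WNT against 48 h (0.212%). Against 24 h the unadjusted counts were 4 for WNT (16.3% of all genes), 3 for the FZD5 agonist (17.6%) and 3 for the FZD6 agonist (15.3%), and between the agonists 1 (0.994%). DESeq2 called Lyz1 for the FZD6 agonist against WNT (0.325% of all genes called), against 48 h (0.353%) and against 24 h (1.35%), Bex2 and Chil1 for WNT against 24 h (2.16%), and 0 members in the other 5 comparisons. These Lyz1 calls include FZD6 agonist library 1, at 6152 CPM against 1480 and 1279 in the rest of its group. In edgeR's fit over 14 libraries Lyz1 was past the threshold against WNT and 48 h but not against 24 h (0.91, adjusted p = 0.365).

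Without the 4 libraries, the same test called members in 2 of the 3 comparisons between ligands. This fit leaves the 3 libraries of WNT, FZD5 agonist and 48 h withdrawal untouched and keeps 2 of the FZD6 agonist and of 24 h withdrawal and 1 of CHIR. It has smaller errors (for Chil1 with the FZD5 agonist against WNT, an SE of 0.0608 in place of 0.264). The FZD5 agonist against WNT had 3 members called where 16.7% of 17433 genes were called. Lyz1 rose by a log2 fold change of 1.79 ± 0.312 (SE, adjusted p = 0.00521), Chil1 fell by 0.72 (adjusted p = 2.96e-06) and S100g fell by 1.04 (SE 0.199, adjusted p = 0.00542). Bex2 had 0.63 (adjusted p = 0.0754) and Lyz2 0.13 (adjusted p = 0.373), neither past the threshold. The libraries of both groups did not overlap for these 3 genes and Bex2, 4 of 5 members (32.7% of all genes). A fit of these 6 libraries alone, none of which stood apart, called the same 3 genes, with adjusted p = 0.00326 for Lyz1, 0.00215 for Chil1 and 0.0297 for S100g (13.1% of genes called).

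Against 48 h withdrawal, where no test is read because its libraries took part in the choice of the members, the FZD5 agonist had log2 differences over 14 libraries of 1.79 for Lyz1, 0.46 for Lyz2, -0.76 for Chil1, -1.11 for S100g and 0.38 for Bex2. The count past the threshold was 4 (15.7% of all genes), and 4, all but Bex2, were without overlap (32.4%). WNT against 48 h withdrawal had differences of 0.00 for Lyz1, 0.33 for Lyz2, -0.04 for Chil1, -0.07 for S100g and -0.25 for Bex2, with a count of 0 (0% of all genes). Lyz2 and Chil1 had no overlap there (16.2% of all genes), so these small differences do not show equal levels.

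The FZD6 agonist had 4 members called against WNT (11.8% of all genes) over 14 libraries. Lyz1 rose by 2.19 (adjusted p = 0.00378) and Lyz2 by 0.42 (adjusted p = 0.0109), and Chil1 fell by 0.67 (adjusted p = 2.78e-05) and S100g fell by 1.30 (adjusted p = 0.00469). Bex2 had 0.60 (adjusted p = 0.151). Against 48 h, as a description, the log2 differences were 2.20 for Lyz1, 0.75 for Lyz2, -0.71 for Chil1, -1.37 for S100g and 0.35 for Bex2, with 4 past the threshold (12.1% of all genes). Over all libraries 4 of 5 were without overlap against WNT, Lyz2 being the exception (24.2% of all genes), and Lyz1, Chil1 and S100g against 48 h (25.7%). These comparisons share the WNT or 48 h libraries with those of the FZD5 agonist, so their likeness is no separate result. Over 18 libraries the Lyz1 difference was 3.31 against WNT and 3.30 against 48 h, set by FZD6 agonist library 1. The Lyz2 difference over 18 libraries was 0.11 against WNT, not called, and 0.42 against 48 h. FZD6 agonist library 1 held 793 CPM of Lyz2, below all WNT libraries (lowest 1420). The call of Lyz2 over 14 libraries thus rests on leaving that library out.

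Between the agonists themselves no member was called over 14 libraries (0.00574% of all genes), with log2 differences of FZD5 agonist minus FZD6 agonist of -0.41 ± 0.335 for Lyz1, -0.30 ± 0.0991 for Lyz2, -0.05 ± 0.0675 for Chil1, 0.26 ± 0.225 for S100g and 0.03 ± 0.252 for Bex2 (SE). Over 18 libraries Lyz2 had 0.02, Chil1 0.15 and Bex2 -0.59, each of the other sign, and Lyz1 gave -1.52 ± 0.507 and was the 1 member without overlap (10.1% of all genes), a value that rests on FZD6 agonist library 1.

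Against 24 h withdrawal the same limit holds, and values over 14 libraries are a description. For WNT the log2 differences were 1.36 for Chil1, 1.10 for Lyz2, 1.73 for S100g, -1.28 for Lyz1 and -1.51 for Bex2, with 5 past the threshold (13.6% of all genes). For the FZD5 agonist Lyz2 had 1.23 and Chil1 0.64, the 2 past the threshold (4.23%). For the FZD6 agonist the same 2 genes (0.677%) had 1.53 and 0.69. Over 18 libraries S100g had -0.20 and -0.76 with the FZD5 and FZD6 agonists against 24 h and over 14 libraries 0.70 and 0.43, so that its sign turned without the 4 libraries. Without overlap were 4 members for WNT (all but S100g, 20.7% of all genes), Lyz2, Chil1 and Bex2 for the FZD5 agonist (19.8%), and Lyz1 and Lyz2 for the FZD6 agonist (12.5%).

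**Figure D3:**
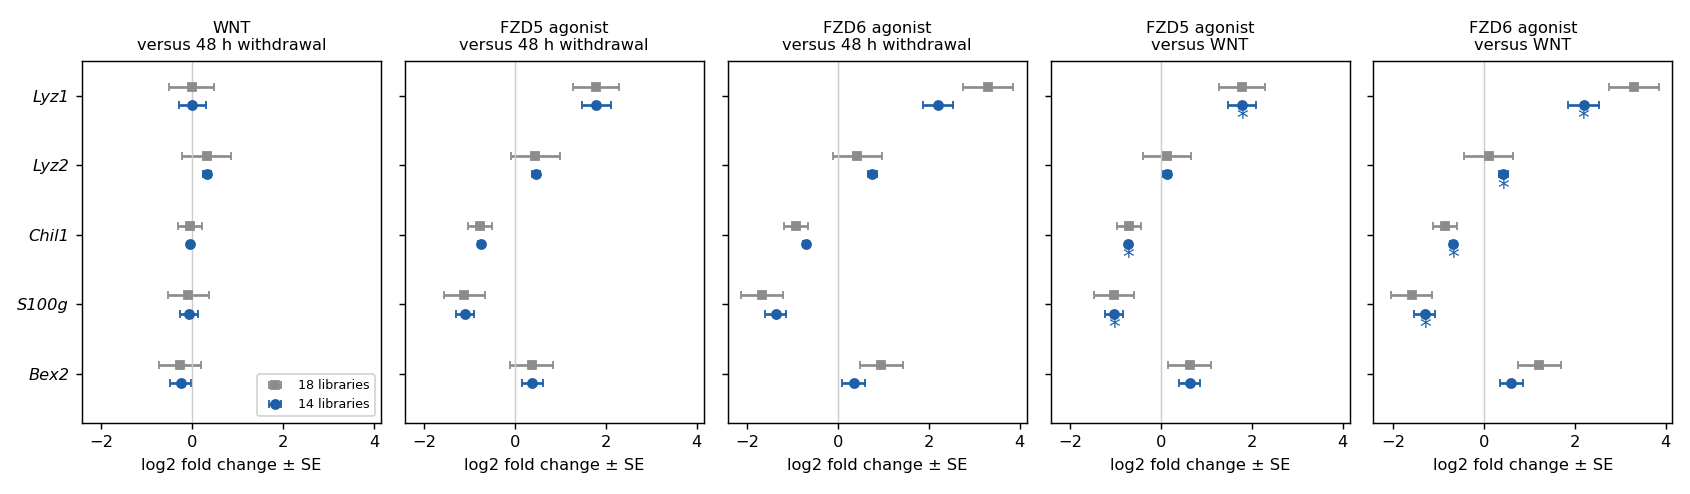
Log2 fold change with its SE for each of the 5 genes in 5 comparisons, over 18 libraries (grey squares) and over 14 (blue circles), with an asterisk in the panels against WNT where edgeR's adjusted p over 14 libraries is under 0.05. Values near 0 fill the panel of WNT against 48 h withdrawal, and Lyz1 lies right and Chil1 and S100g left of 0 in the panels of both agonists.

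With Lyz1 and Lyz2 summed into 1 feature, a read given to the wrong lysozyme no longer matters, although reads left out of both would still be missing. The FZD5 agonist exceeded WNT in this sum by 0.57 (adjusted p = 0.00374) and the FZD6 agonist by 0.91 (adjusted p = 0.000375) over 14 libraries. As a description, the differences from 48 h withdrawal were 0.84 for the FZD5 agonist, 1.18 for the FZD6 agonist and 0.27 for WNT. Over 18 libraries the sum was called in none of the 9 comparisons, with 0.58 for the FZD5 agonist against WNT (adjusted p = 1). The mean sum was 1788 ± 192 CPM with WNT, 2667 ± 318 with the FZD5 agonist and 1500 ± 143 after 48 h.

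Reference genes of the pathway and of the cell type give the setting of these values. Axin2, a direct target and inhibitor of Wnt signalling, averaged 4.45 ± 4.33 CPM in CHIR, 3.59 ± 1.17 with the FZD5 agonist, 2.03 ± 0.908 with the FZD6 agonist, 1.34 ± 1.18 after 24 h, 0.450 ± 0.304 after 48 h and 0.332 ± 0.0811 with WNT. Over 14 libraries the Axin2 values were 9.43 in CHIR (1 library), 2.51 with the FZD6 agonist and 2.01 after 24 h. Sftpc, the surfactant protein that defines the cell type, ran from 36653 to 53768 CPM in the 14 libraries and up to 144758 in 24 h withdrawal 2. The summed level of 10 alveolar type 1 markers was 4222 to 8058 CPM in CHIR, 6732 to 9847 after 24 h, 9178 to 10231 after 48 h, 8791 to 9287 with WNT, 7153 to 9597 with the FZD5 agonist and 7851 to 8418 with the FZD6 agonist. Its part in the levels of Chil1 and S100g, which were highest in the same groups, was not tested. In bulk RNA, fewer cells that express a gene and less RNA per cell cannot be told apart.

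Related genes were taken from family and pathway lists, for which the 18-library fit called 0 genes in the comparisons of the agonists with WNT and 48 h, and values over 14 libraries follow. The lysozyme family offered no other measured gene, since 0 of its 8 further members passed the filter on low counts. Of 9 further chitinase-family genes 5 were tested and 0 called in each of these comparisons (11.8% to 16.7% of all genes called). Chil3 had 0 counts, and the lysosomal chitobiase Ctbs measured 16.2 ± 0.544 CPM with the FZD5 agonist and 19.8 ± 2.14 with WNT.

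Of 7 genes for the Chil1 receptor complex and its partners, 6 were tested, and 3 fell and 0 rose with the FZD5 agonist against WNT (16.7% of all genes called). The proteoglycan syndecan-1 (Sdc1) fell by 0.98, from 1932 ± 135 to 979 ± 83.5 CPM (adjusted p = 2.34e-06). The hyaluronan receptor Cd44 fell by 0.39 (adjusted p = 0.00323) and Tmem219, a Chil1 receptor subunit, fell by 0.36 (adjusted p = 0.0295). Il13ra2, the best known Chil1 receptor, averaged at most 0.206 CPM in any group. The list's median difference over 18 libraries was -0.13, against 0.02 for all genes.

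Most measured S100 genes fell, as S100g did, with the FZD5 agonist against WNT, but not in each comparison did they move alike. Of 16 further symbols on the list, of which S100pbp is a binding partner rather than an S100 protein, 9 were tested. With the FZD5 agonist against WNT, 6 fell and 0 rose (16.7% of all genes called). S100a1, known for calcium handling in muscle, fell by 1.60, from 122 ± 18.5 to 40.2 ± 5.13 CPM (adjusted p = 1.21e-06). S100a6 fell by 1.67, from 14.8 ± 3.24 to 4.67 ± 1.02 CPM (adjusted p = 9.92e-05), S100a16 fell by 0.77 and S100a13 fell by 0.84. The list's median difference over 18 libraries was -0.76, against 0.02 for all genes. Against 48 h withdrawal 4 fell and 0 rose (15.7% of all genes called), and likewise with the FZD6 agonist against WNT (11.8%). In the latter comparison S100a6 had -1.58 over 14 libraries but 0.23 over 18. With the FZD5 agonist against 24 h withdrawal, 3 of these genes fell and 0 rose over 14 libraries (4.23% of all genes called). S100g had 0.70 there. Between 48 h and 24 h withdrawal the list's median difference over 18 libraries was -0.74, while S100g had 0.92.

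Of 11 other genes for vitamin D response and calcium transport, 5 were tested. Trpv6, the epithelial calcium channel that works together with calbindin-D9k in the intestine, fell by 0.91 with the FZD5 agonist against WNT, from 29.4 ± 2.78 to 15.7 ± 1.40 CPM (adjusted p = 4.24e-05). The plasma membrane calcium pump Atp2b1 rose by 0.28 (adjusted p = 0.0189). The vitamin D receptor Vdr measured 9.87 ± 1.32 against 11.1 ± 0.914 CPM (adjusted p = 0.397), and Cyp24a1, the vitamin D-degrading enzyme that is the classic target of that receptor, had 0 counts in each library. With the FZD6 agonist against WNT, Trpv6 had -0.83 over 14 libraries (adjusted p = 0.00035) and -0.02 over 18.

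Of 11 other BEX and TCEAL symbols, 6 were tested, and 1 rose and 2 fell with the FZD5 agonist against WNT (16.7% of all genes called). Bex1, the closest relative of Bex2, rose by 0.76, from 3.56 ± 0.815 to 6.04 ± 0.647 CPM (adjusted p = 0.00683). Bex3 fell by 0.32 and Tceal9 fell by 0.28.

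Among 18 other airspace antimicrobial and host defence products, 14 were tested, and 1 rose and 3 fell with the FZD5 agonist against WNT (16.7% of all genes called). The collectin Sftpa1 rose by 0.88 (adjusted p = 0.00321), while complement C3 fell by 0.57 (adjusted p = 5.23e-05), Lcn2, which withholds iron from bacteria, fell by 0.55 (adjusted p = 0.0128), and Lrg1 fell by 1.17 (adjusted p = 0.0372). Lyz1 and Sftpa1 were thus higher and C3, Lcn2, Lrg1 and Chil1 lower with the FZD5 agonist, and the collectin Sftpd measured 8682 ± 635 against 8552 ± 797 CPM.

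Of 24 other alveolar type 2 products, all 24 were tested, and 4 rose and 7 fell in this comparison (16.7% of all genes called). The transcription factor Etv5 rose by 0.98, from 148 ± 2.86 to 293 ± 30.1 CPM (adjusted p = 6.05e-07). Fabp5, a fatty acid-binding protein, fell by 0.58, the phosphatase inhibitor Ppp1r14c fell by 0.44, and surfactant protein Sftpb fell by 0.57. Sftpc had 0.11 (adjusted p = 0.58). The median was 0.03 over 18 libraries, near that of all genes.

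**Figure D4:**
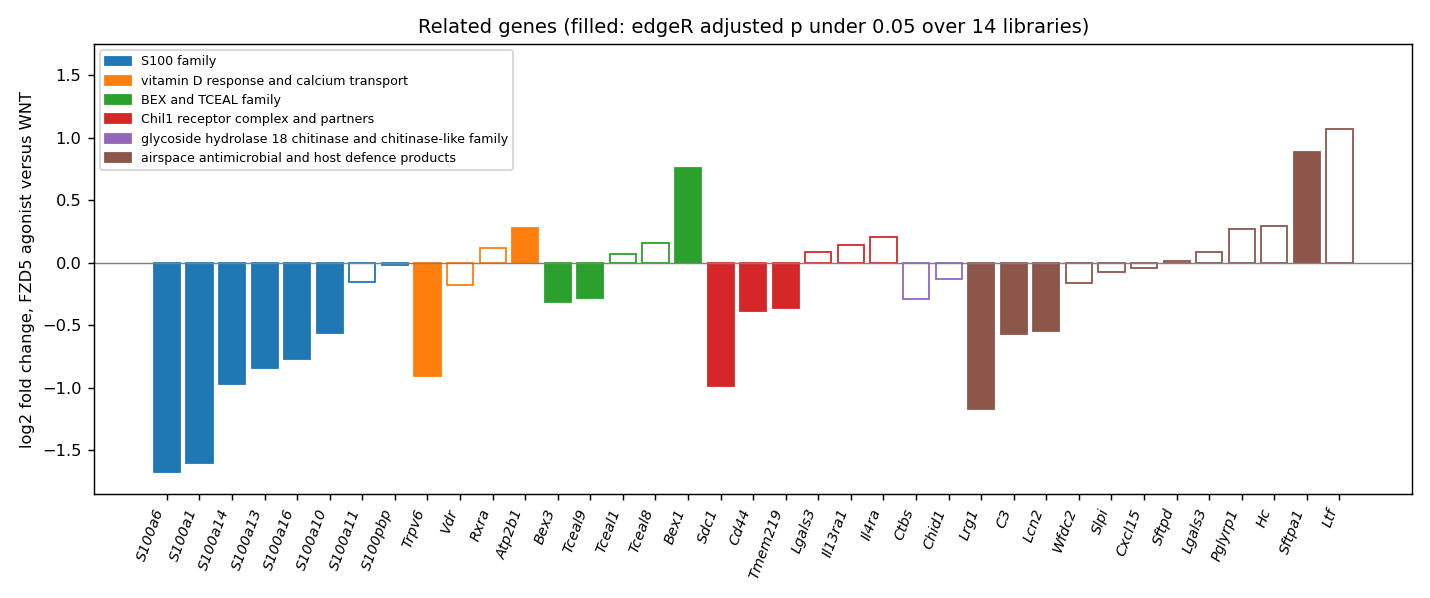
Log2 fold change of the FZD5 agonist against WNT over 14 libraries (vertical axis) for the tested genes with a mean of at least 1 CPM in 6 related lists, members excluded, coloured by list and filled where edgeR's adjusted p is under 0.05. The S100 bars all lie below 0, with S100a6 at -1.67 and S100a1 at -1.60, while Bex1 and Sftpa1 are filled above 0.

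The genes most like each member were found by Pearson's r of log2 CPM over 14 libraries, among 9979 tested genes whose average log2 CPM was 2 or more, as a description. The points share treatment groups, library depth and preparation, so they are not 14 independent ones, and r largely follows differences between groups. The value over all 18 libraries follows in each case. Chil1 was closest to Itm2a (0.977, 18 libraries 0.939), C3 (0.976 and 0.810) and Itm2c (0.974 and 0.658). S100g was closest to Tmem176b (0.987 and 0.803), the vesicle fusion protein Vamp8 (0.985 and 0.802) and the transcytosis protein Mal2 (0.984 and 0.378). For Mal2 most of the relation was gone when the 4 libraries entered.

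Lyz2 was closest to Cd177 (0.941 and 0.826), the neutrophil-attracting chemokine Cxcl5 (0.910 and 0.891) and complement factor B, Cfb (0.900 and 0.850). Lyz1 was closest to the histone chaperone Nap1l1 (0.968 and 0.514), the tyrosine sulfotransferase Tpst1 (0.968 and 0.134) and the polarity protein Pard6g (0.967 and 0.401). Bex2 was closest to Cyb5r1 (0.962 and 0.793) and to 2 subunits of the chaperonin that folds actin and tubulin, Cct5 (0.960 and 0.590) and Cct2 (0.960 and 0.975). Among the members, r over 14 libraries was 0.959 for Chil1 with S100g (0.685 over 18), -0.901 for Chil1 with Bex2 (-0.905) and 0.123 for Lyz1 with Lyz2 (-0.274), so that the lysozymes, near-identical in coding sequence, had the weakest relation of these pairs.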

How the data were processed

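RNA was isolated with a column kit and 0.1 µg went into a stranded total RNA library, per the labels' protocols. The submitters' processing notes name GSNAP and GRCm38; the sources used here give no version, annotation, counter or strand setting. The deposited gene counts are whole numbers, not normalised. The authors' RPKM values in the same tables were used only to recover the library total, of which 11.7% to 15.6% lay outside gene counts in 17 libraries and 31.3% in 24 h withdrawal 2.

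All 18 libraries, grouped by treatment label, entered 1 edgeR 4.0.16 quasi-likelihood fit in R 4.3.3 (filterByExpr by group, 36139 genes removed and 16497 tested, TMM factors, robust estimation, no covariates). Benjamini-Hochberg adjustment ran over all genes tested, with 0.05 as threshold. The SE comes from the size of the log2 fold change over the root of the F statistic. Level correlations used log2 CPM with a prior count of 2. No pair of libraries in a group was within sampling noise, so none were merged and each entered the fit as 1 sample. That does not show that they are separate cultures or animals. Alternatives were DESeq2 1.42.0, RLE factors, no filter, only the groups compared, both lysozymes summed, the replicate number as a block, leaving out each library, and a fit without the 4 libraries that stand apart. The fit of 2 groups without those 4 was added after the data were seen. The edgeR procedure was tested on simulated counts with the same spread for all genes and no library that stood apart. That test thus does not cover data with such libraries.

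The members, the gene lists and the 4 libraries were chosen with earlier results of these data known. Named genes are the members, Axin2, Lgr5, Sftpc, list genes with a mean of at least 1 CPM (up to 4 called ones per comparison by smallest p) and the 3 genes most like each member. Outside this rule, Ctps2, Chil3, Cyp24a1, Il13ra2, S100pbp and the cell type markers are named as checks.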

Additional observations from a re-analysis of the deposited data

How the results depend on the processing

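The number of the 5 genes called was 0 in all 9 comparisons with all 18 libraries, and it was also 0 in all 9 with RLE factors and with the lysozymes summed. Without the 4 libraries it became 4 for the FZD5 agonist against 48 h withdrawal (15.7% of all genes called) and 4 for the FZD6 agonist (12.1%). Against 24 h it became 5 for WNT (13.6%), 2 for the FZD5 agonist (4.23%) and 2 for the FZD6 agonist (0.677%). Against WNT it became 3 for the FZD5 agonist (16.7%) and 4 for the FZD6 agonist (11.8%). It stayed 0 in the other 2 comparisons (0% and 0.00574%). With only the groups compared it was 4 for the FZD5 agonist against 48 h (13% of genes called), 3 against WNT (13.1%), and 0 elsewhere (at most 0.199%). With both restrictions, chosen after the data were seen, it was 4, 4, 4, 1, 3, 3 and 4, in the order given for the fit without the 4 libraries. The genes called among all genes were then 1958, 3283, 2232, 37, 345, 1998 and 2895. Their shares of the genes tested are not given here, so nothing is read from the member counts of that setting. DESeq2 gave 1, 1 and 1 for the FZD6 agonist against 48 h, 24 h and WNT (0.353%, 1.35% and 0.325% of genes called). It gave 2 for WNT against 24 h (2.16%). No filter gave 1 and 1 for the FZD6 agonist against 48 h and WNT, with 4 and 4 called among all genes. Leaving out each library gave 0 to 1 for the FZD6 agonist against 48 h and against WNT, for WNT against 24 h and for the FZD5 agonist against 24 h, and 0 to 0 in the other 5. The genes called among all genes reached at most 3, 2, 21 and 1139 in the first 4 of these comparisons. The cause was not tested beyond the fewer libraries in a fit.

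Over all genes the counts moved likewise. For the FZD5 agonist against WNT they were 0 with 18 libraries, 2903 with 14, 1998 with only those groups and 30 with DESeq2. For the FZD6 agonist against 24 h, leaving out 24 h withdrawal 3 gave 985 genes and leaving out 24 h withdrawal 1 gave 609, against 0. Without the 4 libraries, S100g against 24 h changed sign for both agonists, as did Lyz2, Chil1 and Bex2 between the agonists. None of these values was called over 18 or 14 libraries.

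Replicate numbers did not pair the libraries: of 45 same-number pairs 4 had a correlation of deviations over 0.1 (median -0.02), and 0 of 18 libraries correlated best with their own number. With the replicate number as a block, 0 of 5 members were called in all 9 comparisons.

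Without 24 h withdrawal 2, the S100g log2 ratio of 24 h against CHIR was 0.85 and that of 48 h against 24 h was 1.80. The log2 difference of Chil1 at 24 h against CHIR in the edgeR fit went from -0.05 to 0.52 without the 4 libraries. In that fit CHIR 2 was the only CHIR library left. At 3 counts the depth limits none of the 5 members, which all lay above it in each library.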
